A study of Mus musculus with 9 samples.

Results

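The genes described here are the 10 genes of major histocompatibility complex (MHC) class I presentation listed as B2m, H2-K1, H2-D1, H2-Q4, H2-Q7, H2-T23, Tap1, Tap2, Tapbp and Nlrc5. They were found by matching each symbol of the GENCODE M21 annotation to the Ensembl identifiers of the deposited count table, and all 10 were present among 47937 identifiers and passed the filter on low counts that left 12536 genes for testing. RNA was sequenced from spleen CD4+ T cells of C57BL/6 mice that had been selected with CD62L beads, CD62L being a surface protein of naive and resting T cells. There were 9 libraries, 3 in each of 3 groups, and every group used the replicate numbers 1, 4 and 5. Resting cells received no stimulus named in the labels. Control cells were held for 15 min with the solvent DMSO and then activated on a plate coated with anti-CD3 and anti-CD28 antibodies. TEPP-46 cells were activated in the same way after 15 min with TEPP-46, a small molecule that activates the glycolytic enzyme pyruvate kinase M2, at 50 to 100 µM, a range that the labels do not resolve by library. The labels name no transgene or deletion, and the age and sex of the mice, the length of activation and whether the resting cells were cultured were not found in the labels. No label says that the libraries of a group came from separate animals, so p-values measure the spread between these libraries, which may be technical.

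MHC class I molecules show peptides made inside a cell to CD8+ T cells and are found on nearly all nucleated cells, T cells included. A heavy chain, encoded in the H2 region of the mouse, pairs with beta-2-microglobulin, and the pair is loaded with peptide in the endoplasmic reticulum, where the TAP transporter brings peptides in and tapasin holds the empty molecule at the transporter. In lymphocytes NLRC5 is the coactivator that acts on the promoters of these genes, and interferons raise their transcription, in part through IRF1.

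The total count per library ran from 2397304 to 5030643, and 3 counts corresponded to 0.603 to 1.26 CPM (counts scaled to a library of 1000000 by TMM factors) in a library. The libraries of a group did not resemble each other equally. Correlations of log2 CPM across genes with the other libraries of the group were 0.937 and 0.938 for resting library 1, 0.972 to 0.983 among control libraries and 0.818 to 0.913 among TEPP-46 libraries, with the lowest value between TEPP-46 libraries 1 and 4. Markers of other cells moved with the groups. The summed level of 12 B cell markers was 1704 to 1899 CPM in resting, 234 to 264 CPM in control and 739 to 1242 CPM in TEPP-46 libraries, with 2 of the 12 at 0 in the control group and none at 0 in the others. Most of each sum was Ighm, an immunoglobulin heavy chain, at 1654 to 1815 CPM in resting and 217 to 239 CPM in control libraries. The other 11 together were 27.8, 392 and 80.6 CPM in TEPP-46 libraries 1, 4 and 5. In control libraries they were 16.7 to 24.45 CPM, so TEPP-46 library 1 lay near those. The summed level of 13 T cell markers was 9049 to 12610 CPM in resting, 5800 to 7483 CPM in control and 11860 to 13780 CPM in TEPP-46 libraries, with none at 0, and the libraries held Cd4 in every group. In these bulk samples, fewer cells of a type and less RNA per cell cannot be told apart, and CPM is a share of a library and not an amount per cell.

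The promoters of the genes are shown first because class I genes are known for a shared block of control elements upstream of the start. RefSeq promoter windows of build GRCm38.p6, running from 250 bases before to 50 bases after the transcript start, were given for 8 of the 10 genes, and Tap2 and Nlrc5 were without one. Parts of 6 windows are printed 5′ to 3′ on the gene's strand, with at most 20 bases after the start. H2-K1 and H2-D1 are the main classical heavy chains, H2-Q7 is a nonclassical heavy chain, and B2m, Tap1 and Tapbp encode the partners. Capitals mark every match on either strand to CCAAT (the core of the Y box), TGACG (the core of the X2 box), GAANNGAAA (the core of the interferon response element), a longer form of that element (GAAA, 2 bases of any kind, GAAA) and the core of an NF-kappaB site (GGG, 5 bases of any kind, CC). Adjacent capitals can belong to overlapping matches of the same motif on both strands.
H2-K1 (chr17:34000328-34000497, minus strand): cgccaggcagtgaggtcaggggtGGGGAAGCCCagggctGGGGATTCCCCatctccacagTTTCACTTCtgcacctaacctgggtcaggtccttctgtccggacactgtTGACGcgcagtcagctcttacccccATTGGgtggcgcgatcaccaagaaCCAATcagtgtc
H2-D1 (chr17:35262887-35263065, plus strand): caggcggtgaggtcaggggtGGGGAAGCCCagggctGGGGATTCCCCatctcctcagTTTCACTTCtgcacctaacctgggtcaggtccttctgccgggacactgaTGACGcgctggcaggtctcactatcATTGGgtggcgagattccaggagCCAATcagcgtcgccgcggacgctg
H2-Q7 (chr17:35439002-35439163, plus strand): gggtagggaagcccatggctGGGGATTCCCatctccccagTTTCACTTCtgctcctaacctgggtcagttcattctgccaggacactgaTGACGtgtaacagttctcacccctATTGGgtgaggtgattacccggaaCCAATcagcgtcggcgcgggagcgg
B2m (chr2:122147488-122147658, plus strand): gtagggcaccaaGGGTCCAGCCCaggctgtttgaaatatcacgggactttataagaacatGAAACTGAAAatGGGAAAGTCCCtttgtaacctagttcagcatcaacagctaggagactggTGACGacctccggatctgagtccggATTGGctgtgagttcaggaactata
Tap1 (chr17:34187306-34187575, plus strand): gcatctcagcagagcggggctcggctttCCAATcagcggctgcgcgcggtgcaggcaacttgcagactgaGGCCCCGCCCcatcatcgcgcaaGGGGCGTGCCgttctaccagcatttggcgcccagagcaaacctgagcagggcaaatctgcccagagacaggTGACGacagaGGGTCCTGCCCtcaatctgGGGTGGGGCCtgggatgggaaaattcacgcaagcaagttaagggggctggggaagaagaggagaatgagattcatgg
Tapbp (chr17:33919228-33919497, plus strand): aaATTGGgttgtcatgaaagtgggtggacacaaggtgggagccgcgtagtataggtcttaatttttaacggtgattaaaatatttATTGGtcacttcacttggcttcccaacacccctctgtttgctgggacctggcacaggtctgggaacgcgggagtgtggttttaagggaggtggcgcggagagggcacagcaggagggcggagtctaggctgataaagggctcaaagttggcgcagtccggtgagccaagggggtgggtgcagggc

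The 3 heavy chain windows printed above held the same 4 motifs in the same order, from the NF-kappaB core through the interferon response core and the X2 box core to the Y box core. H2-Q4 held all 4 as well. Over 27025 promoter windows of the same length, 0.22% (59 windows) held all 4, and these 4 genes were among them. CCAAT was found in all 8 windows, against 37.92% of all windows. TGACG was found in 6 of the 8 windows (all but H2-T23 and Tapbp), against 21.02%. GAANNGAAA was found in the 4 H2-K, H2-D and H2-Q windows alone, against 7.56%. The NF-kappaB core was found in 6 of the 8 windows, against 50.41%. The longer form of the interferon response element, searched after the B2m window had been seen, was found in B2m from 139 to 130 bases before the start and in H2-T23 from 124 to 115 bases before it, against 3.49% of all windows. The first 4 motifs were chosen because class I promoters are known for them, so a high share among these genes does not test anything. The windows of the H2-K, H2-D and H2-Q genes also resemble each other, and their matches are not independent. The Tapbp window, from 33919228 to 33919497, lies inside the annotated gene, which begins at 33915899 and has 9 transcripts. Its lack of the other motifs thus describes only the RefSeq start used. A match describes letters only and is neither a bound site nor a cause.

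**Figure D1:**
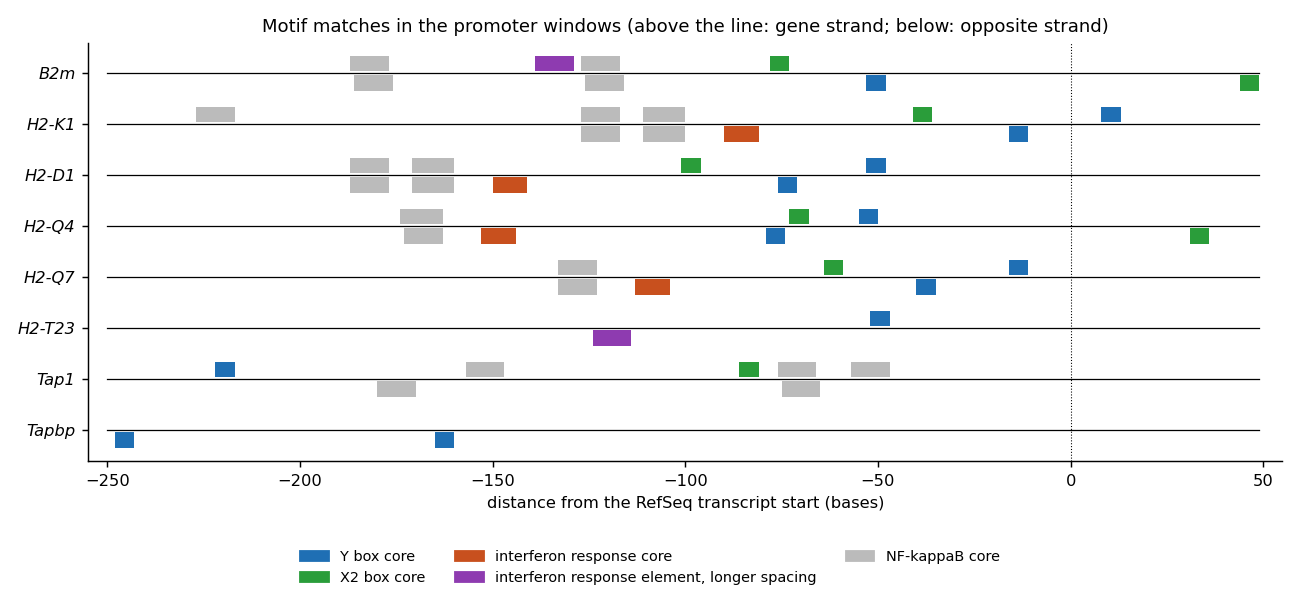
Motif matches in the RefSeq promoter windows of 8 class I presentation genes. The horizontal axis is the distance from the transcript start in bases, each row is a gene, and boxes above or below the line are matches on the gene's strand or on the opposite strand. In H2-D1 and H2-Q7 the boxes run from the NF-kappaB core through the interferon response core and the X2 box core to the Y box core. The Tapbp window, which lies inside the annotated gene, holds Y box cores alone.

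Levels of different genes were compared as CPM per kilobase of the principal transcript. In resting libraries the order by mean ± SD (n = 3) began with H2-D1 at 2985 ± 199, B2m at 2692 ± 562 and H2-K1 at 2040 ± 100 CPM per kilobase. H2-D1 and B2m overlapped between libraries and H2-K1 lay below both. Tapbp followed at 312 ± 69.1 and Tap2 at 171 ± 48.8, without overlap between these neighbours. H2-Q7 at 119 ± 7.43 overlapped Tap2 above it and Tap1 below it, which stood at 103 ± 12.1. H2-T23 was lower at 61.3 ± 31.6. H2-Q4 at 18.7 ± 5.80 and Nlrc5 at 17.7 ± 5.02 overlapped each other and formed the end of the order.
By this length the order changed for the transporter. In control libraries Tap1 stood at 149 ± 6.22 and Tap2 at 96.8 ± 4.29 CPM per kilobase, with H2-Q7 at 131 ± 23.3 between them and no overlap of Tap1 and Tap2. In TEPP-46 libraries Tap1 stood at 291 ± 108 and Tap2 at 238 ± 31.2, and these neighbours overlapped. When all annotated exons were used as the length, Tap2 remained above Tap1 in all 3 groups. It stood at 88.1 against 80.3 CPM per kilobase in control and 217 against 157 in TEPP-46 libraries. The order of the transporter subunits in both activated groups thus depends on the length used. In resting libraries that length also placed B2m at 2692 above H2-D1 at 2433, with overlap, and Tap1 at 55.6 above H2-Q7 at 41.7, without overlap. The ratio of Tap2 to Tap1 counts within a library needs no length. It was 1.40, 1.94 and 2.48 in resting libraries 1, 4 and 5, 0.702, 0.761 and 0.813 in controls, and 0.709, 1.11 and 1.24 with TEPP-46. All resting libraries were above all others, and the control and TEPP-46 ranges overlapped.

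**Figure D2:**
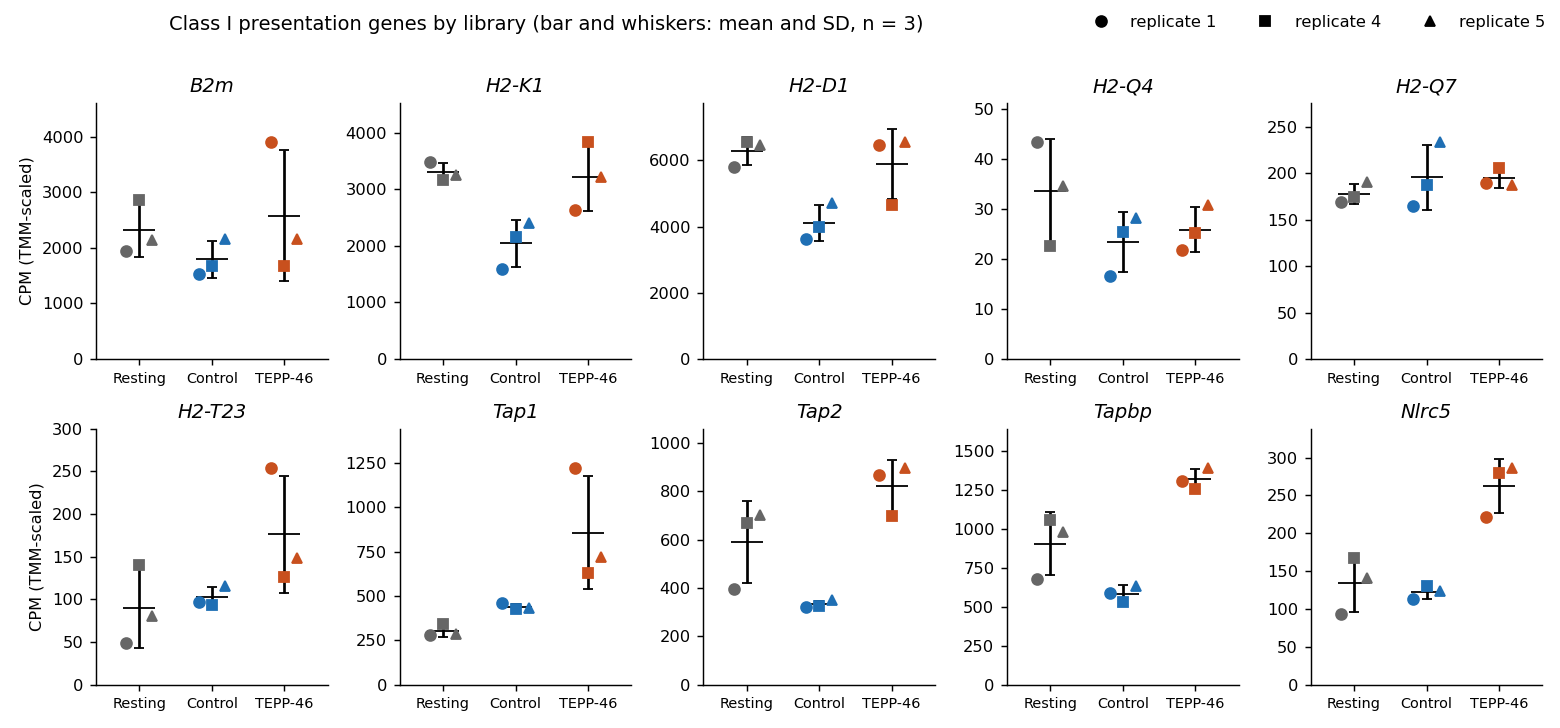
CPM of the 10 class I presentation genes in each library. Each panel is a gene, the vertical axis is CPM on TMM-scaled library sizes starting at 0, the symbols are replicate numbers 1, 4 and 5, and the bar and whiskers are the mean and SD of 3 libraries. Tap2, Tapbp, Tap1, Nlrc5, H2-K1 and H2-T23 are higher in every TEPP-46 library than in every control library, and H2-Q7 and H2-Q4 overlap in all groups.

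Activation in DMSO was compared with the resting state first. Tap2 and Tapbp were called lower on activation, by 0.82 and 0.63 on the log2 scale. The call of Tapbp was lost in 12 of 19 alternative settings. No member was called higher by edgeR, although Tap1 was higher in every control library than in every resting library. The main heavy chains H2-K1 and H2-D1 were lower in every control library than in every resting library, by similar amounts, and did not pass the test of edgeR. Each was called lower in 6 of the 19 alternative settings, DESeq2 and limma-voom among them. Of the 10 genes, 0 were called higher and 2 lower at an adjusted p below 0.05 in the quasi-likelihood test of edgeR (Benjamini-Hochberg adjustment), against 15.5% of all genes tested called higher and 15.8% called lower (31.2% in either direction). The 20% called lower was near the share over all genes. At an unadjusted p below 0.05, 0 of the 10 were higher and 4 lower in the same test, and DESeq2 and limma-voom each called 0 higher and 4 lower. The median log2 fold change of the 10 genes was -0.45, beside -0.04 over all genes. The libraries of both groups did not overlap for 5 of the 10, against 59.2% of all genes.

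Among the heavy chains, H2-K1 (chromosome 17, 33996017 to 34000347, minus strand, GRCm38) stood at 3484, 3172 and 3251 CPM in resting libraries 1, 4 and 5, at 1584, 2159 and 2397 CPM in control libraries and at 2627, 3839 and 3213 CPM in TEPP-46 libraries. The control libraries were lowest, without overlap with either other group. The log2 fold change of H2-K1 on activation was -0.69 ± 0.24 (SE, n = 3 per group, edgeR adjusted p = 0.0502). H2-D1 (chromosome 17, 35262730 to 35267499, plus strand) stood at 5794, 6557 and 6475 CPM in resting, 3618, 3986 and 4703 CPM in control and 6454, 4664 and 6546 CPM in TEPP-46 libraries. The control libraries lay below all resting libraries, and TEPP-46 library 4 lay just below the highest control library. The log2 fold change of H2-D1 on activation was -0.61 ± 0.23 (edgeR adjusted p = 0.0697). The remaining heavy chains did not pass the test. H2-Q4, a low-level heavy chain with 60 to 216 counts per library, had a log2 fold change of -0.52 ± 0.31 (edgeR adjusted p = 0.227). H2-Q7, a nonclassical heavy chain attached to the membrane by a lipid anchor, had one of 0.14 ± 0.19 (edgeR adjusted p = 0.614), with a 95% interval of -0.28 to 0.56. H2-T23, which encodes Qa-1, the ligand of the CD94-NKG2A receptor, had one of 0.18 ± 0.37 (edgeR adjusted p = 0.737), with a wide interval of -0.64 to 1.01.

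B2m (chromosome 2, 122147686 to 122153083, plus strand), the light chain common to all class I molecules, stood at 1940, 2860 and 2145 CPM in resting, 1535, 1677 and 2166 CPM in control and 3903, 1670 and 2157 CPM in TEPP-46 libraries. All 3 groups overlapped, and TEPP-46 library 1 was by far the highest of the 9. Its log2 fold change on activation was -0.37 ± 0.32 (edgeR adjusted p = 0.413).

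The genes of peptide transport and loading had log2 fold changes of both signs on activation. Tap2 (chromosome 17, 34203527 to 34216321, plus strand), a subunit of the TAP peptide transporter, stood at 397, 670 and 703 CPM in resting, 324, 326 and 350 CPM in control and 868, 698 and 897 CPM in TEPP-46 libraries. Every control library lay below every resting library, and the control libraries lay close together. Tap2 fell by 0.82 ± 0.24 on the log2 scale (edgeR adjusted p = 0.0267). Tapbp (chromosome 17, 33915899 to 33929292, plus strand), which encodes tapasin, stood at 678, 1055 and 981 CPM in resting, 589, 529 and 634 CPM in control and 1303, 1255 and 1390 CPM in TEPP-46 libraries. The 3 groups did not overlap, with control lowest and TEPP-46 highest. Tapbp fell by 0.63 ± 0.22 on activation (edgeR adjusted p = 0.0482). Tap1 (chromosome 17, 34187553 to 34197225, plus strand), the partner subunit of Tap2, stood at 283, 345 and 284 CPM in resting, 461, 428 and 431 CPM in control and 1224, 628 and 723 CPM in TEPP-46 libraries. The groups did not overlap, with resting lowest. Its log2 fold change on activation was 0.53 ± 0.26, in the direction opposite to Tap2, and did not pass the test (edgeR adjusted p = 0.139). It was called in 2 of 19 alternative settings, with only the compared groups in the fit (adjusted p = 0.0188) and without TEPP-46 library 1 (0.0271). The fall of Tapbp lost its call in 12 of 19 alternative settings, with adjusted p up to 0.166, and that of Tap2 in 5 of 19, without resting library 4 or 5 or any one of the control libraries, with adjusted p up to 0.0986.

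Nlrc5 (chromosome 8, 94434356 to 94527272, plus strand), the coactivator, stood at 92.9, 168 and 141 CPM in resting, 113, 130 and 125 CPM in control and 221, 280.2 and 287 CPM in TEPP-46 libraries. Resting and control libraries overlapped, and all TEPP-46 libraries lay above both. Its log2 fold change on activation was -0.13 ± 0.24 (edgeR adjusted p = 0.711), with a 95% interval of -0.65 to 0.40.

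The comparison of TEPP-46 with control libraries asks which genes differed when activation took place with the pyruvate kinase activator. Tap2, Tapbp, Nlrc5 and Tap1 rose, 1.95-fold to 2.46-fold, that is, the transporter, tapasin and the coactivator. The heavy chains and B2m did not pass the test of edgeR, although H2-K1 and H2-T23 were higher in every TEPP-46 library than in every control library. Of the 10 genes, 4 were called higher, against 9.72% of all genes tested, and 0 lower, against 6.43% (16.2% in either direction). The 10 genes were chosen with earlier results of these data known. In each comparison such shares therefore do not test whether the set stands out. At an unadjusted p below 0.05 in the same edgeR test, 6 of the 10 were higher and 0 lower, DESeq2 called 5 higher and 0 lower, and limma-voom called 4 higher and 0 lower. The added gene in DESeq2 was the heavy chain H2-K1 (adjusted p = 0.0463). The median log2 fold change of the 10 genes was 0.72, beside 0.04 over all genes. The libraries of both groups did not overlap for 6 of the 10, against 39.7% of all genes.

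**Figure D3:**
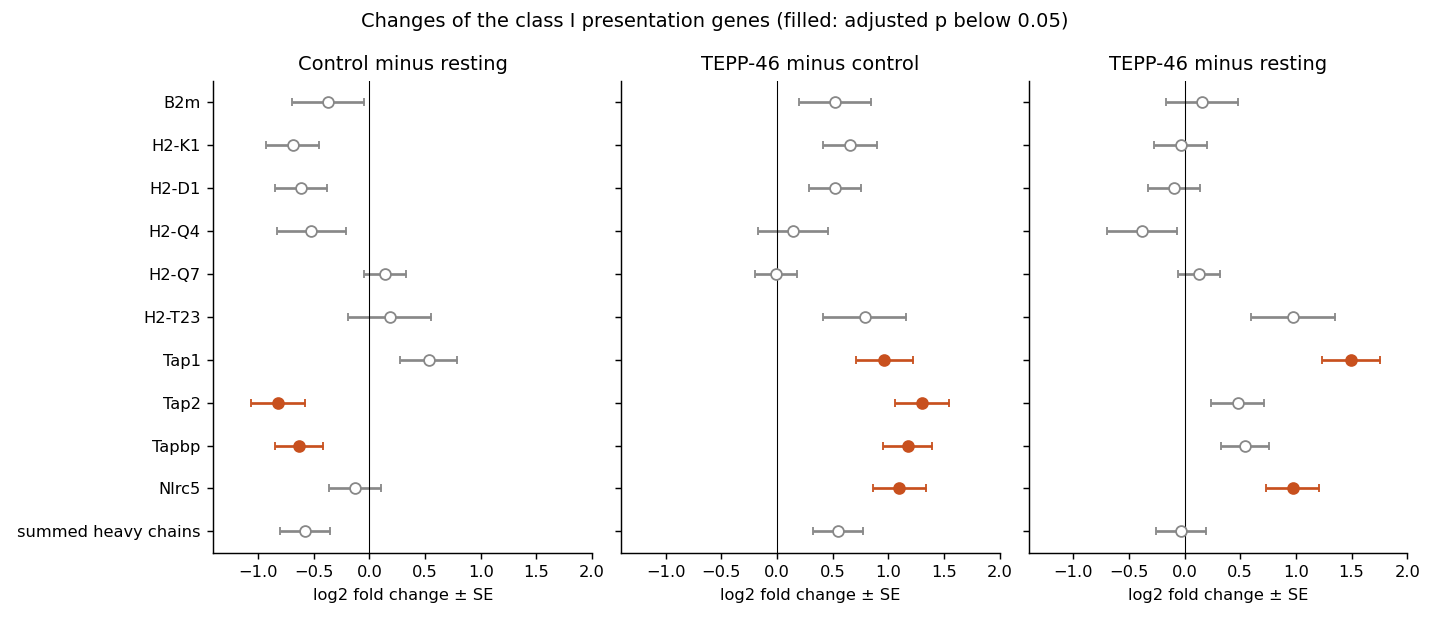
Log2 fold change ± SE of the 10 class I presentation genes and of the summed heavy chains in 3 comparisons. The horizontal axes are log2 fold changes from edgeR's quasi-likelihood fit over all 9 libraries (n = 3 per group), rows are genes, and filled symbols have an adjusted p below 0.05. Tap2 and Tapbp lie below 0 on activation and above 0 with TEPP-46. In the comparison of TEPP-46 with resting libraries, H2-K1, H2-D1, H2-Q7 and the summed heavy chains lie near 0. There H2-T23 lies at 0.97 and H2-Q4 at -0.38.

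Tap2 rose 2.46-fold, with a log2 fold change of 1.30 ± 0.24 (edgeR adjusted p = 0.00911). Tapbp rose 2.25-fold, with a log2 fold change of 1.17 ± 0.22 (edgeR adjusted p = 0.009). Nlrc5 rose 2.14-fold, with a log2 fold change of 1.10 ± 0.24 (edgeR adjusted p = 0.0154). In all of these genes the lowest TEPP-46 library was above the highest control library, and the spread within either group was small beside the difference. Tap1 rose 1.95-fold, with a log2 fold change of 0.96 ± 0.26 (edgeR adjusted p = 0.0323). TEPP-46 library 1 carried the highest Tap1 level, and libraries 4 and 5 were nearer to the control libraries. Calls rested on few libraries. Without control library 4 none of the 4 genes passed, without control library 5 only 1 did, and 2 did without control library 1 or TEPP-46 library 5. The highest adjusted p with 1 library left out was 0.0514 for Tap2, 0.0522 for Tapbp, 0.0742 for Nlrc5 and 0.123 for Tap1, which also missed the threshold without resting library 5. Tap1 also missed the threshold with the replicate number as a block (adjusted p = 0.0586) and with only the compared groups in the fit (0.0617). The log2 fold changes of Tap2, Tapbp and Nlrc5 stayed between 0.97 and 1.41 in all 19 settings, while that of Tap1 ran from 0.61, without TEPP-46 library 1, to 1.15.

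The heavy chains had smaller differences and wide intervals. The log2 fold change of H2-K1 was 0.66 ± 0.24 (edgeR adjusted p = 0.0844), with a 95% interval of 0.13 to 1.19. Without TEPP-46 library 1 it was 0.78 and was called (adjusted p = 0.0233). That of H2-D1 was 0.52 ± 0.23 (edgeR adjusted p = 0.146), with an interval of 0.00 to 1.04. H2-T23 stood at 49.1, 141 and 80.7 CPM in resting, 97.6, 93.4 and 116 CPM in control and 254, 127 and 148 CPM in TEPP-46 libraries. Every TEPP-46 library was above every control library, and library 1 was again the highest. Its log2 fold change was 0.79 ± 0.37 (edgeR adjusted p = 0.166), with an interval of -0.04 to 1.62, and without TEPP-46 library 1 it was 0.42. The members H2-Q4 and H2-Q7 had differences near 0, with all groups overlapping. Some H2-Q genes outside the members had larger differences, of both signs, that did not pass the test. H2-Q4 stood at 22.7 to 43.5 CPM in resting, 16.7 to 28.2 CPM in control and 21.7 to 30.7 CPM in TEPP-46 libraries. Its log2 fold change was 0.14 ± 0.32 (edgeR adjusted p = 0.778), with a wide interval of -0.56 to 0.84. H2-Q7 stood between 169 and 190 CPM in resting, between 165 and 234 CPM in control and between 188 and 206 CPM in TEPP-46 libraries, with a log2 fold change of -0.01 ± 0.19 (edgeR adjusted p = 0.982) and an interval of -0.43 to 0.41. B2m had a log2 fold change of 0.52 ± 0.33 (edgeR adjusted p = 0.279), with an interval of -0.20 to 1.24, and without TEPP-46 library 1 it was 0.09.

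TEPP-46 libraries were also set against resting libraries, which places the treated activated cells beside the starting state and shares libraries with both other comparisons. Tap1 and Nlrc5 were higher than in resting cells, 2.82-fold and 1.96-fold, and the other 8 genes did not pass the test. Of the 10 genes, 2 were called higher, against 6.37% of all genes, and 0 lower, against 3.92% (10.3% in either direction). At an unadjusted p below 0.05 in edgeR's test 4 were higher and 0 lower, and DESeq2 and limma-voom each called 2 higher and 0 lower. The median log2 fold change was 0.32, beside 0.02 over all genes. The libraries did not overlap for 3 of the 10 (Tap1, Tapbp and Nlrc5), against 26.8% of all genes.

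Tap1 differed by 1.497 ± 0.262 on the log2 scale (edgeR adjusted p = 0.00854), and it passed the test in all 19 settings tried. Nlrc5 differed by 0.97 ± 0.24 (edgeR adjusted p = 0.0311), and lost its call in 7 of 19 settings, with adjusted p up to 0.101 when only the compared groups were fitted. Those settings included leaving out resting library 1 or 5, any control library, or TEPP-46 library 5. Tap2 differed by 0.48 ± 0.24 (edgeR adjusted p = 0.242), with a 95% interval of -0.06 to 1.01. Tapbp differed by 0.54 ± 0.22 (edgeR adjusted p = 0.142), with an interval of 0.06 to 1.02. The classical heavy chains were near their resting level. H2-K1 differed by -0.03 ± 0.24 (edgeR adjusted p = 0.945), with an interval of -0.56 to 0.49, and H2-D1 by -0.09 ± 0.23 (edgeR adjusted p = 0.841), with an interval of -0.61 to 0.42. H2-T23 differed by 0.97 ± 0.38 (edgeR adjusted p = 0.129), as much as Nlrc5 and with a larger error.

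Heavy chain genes share stretches of sequence, so their summed counts were also fitted in place of the single genes. The sum covered 27 genes annotated as H2-K1, H2-D1, H2-Q, H2-T or H2-M heavy chains, and H2-D1 gave 59.5% and H2-K1 31.0% of its counts. It stood at 10029, 10566 and 10555 CPM in resting libraries, 5950, 6888 and 7989 CPM in control libraries and 10213, 9517 and 10785 CPM in TEPP-46 libraries. The control libraries lay below all others, and resting and TEPP-46 libraries overlapped. The log2 fold change of the sum was -0.58 ± 0.22 on activation (edgeR adjusted p = 0.0716), 0.55 ± 0.22 for TEPP-46 against control (edgeR adjusted p = 0.113) and -0.03 ± 0.22 for TEPP-46 against resting (edgeR adjusted p = 0.947). DESeq2 called the first 2 of these, with adjusted p = 0.00877 on activation and 0.0232 with TEPP-46. The balance of the classical chains varied between libraries. The ratio of H2-D1 to H2-K1 counts was 1.66, 2.07 and 1.99 in resting, 2.28, 1.85 and 1.96 in control and 2.46, 1.22 and 2.04 in TEPP-46 libraries, so that TEPP-46 libraries 1 and 4 held the highest and the lowest value of all 9.

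Whether the partners moved with the heavy chains was read from their counts per 100 summed heavy chain counts in the same library, a ratio that no scaling of the library changes. These 15 tests were chosen after the values had been seen, and with 3 libraries per group the smallest p an exact permutation test can give is 0.1, which is 0.188 after adjustment over the 15. Tapbp stood at 6.75, 9.99 and 9.30 in resting, 9.90, 7.68 and 7.94 in control and 12.8, 13.2 and 12.9 in TEPP-46 libraries. The TEPP-46 libraries lay above all others and were nearly equal, while resting and control overlapped. Tap2 stood at 3.96, 6.34 and 6.66 in resting, 5.44, 4.73 and 4.38 in control and 8.50, 7.33 and 8.32 in TEPP-46 libraries. Nlrc5 stood at 0.93, 1.59 and 1.34 in resting, 1.90, 1.89 and 1.56 in control and 2.16, 2.94 and 2.66 in TEPP-46 libraries. For these 3 genes the difference of the mean log2 ratio between TEPP-46 and control was 0.62, 0.73 and 0.53, without overlap (exact two-sided permutation p = 0.1 each). Tap1 stood at 2.83, 3.27 and 2.69 in resting, 7.75, 6.21 and 5.39 in control and 11.98, 6.60 and 6.70 in TEPP-46 libraries. Resting libraries were lowest without overlap, with a difference of 1.13 on activation (exact two-sided permutation p = 0.1), and TEPP-46 overlapped with control (difference 0.34, exact two-sided permutation p = 0.4). B2m stood at 17.6 to 38.2 in TEPP-46 libraries and at 24.4 to 27.1 in control libraries, with a difference of -0.12 (exact two-sided permutation p = 0.9).

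Some of these counts can hold reads of another gene. The strand used in counting is not given, and without it a gene's reads cannot be told apart from those of an antisense partner. Tapbp shares 24.9% of its exon bases with the antisense gene Gm19412, whose log2 fold change with TEPP-46 was 1.25 ± 0.23 (edgeR adjusted p = 0.00871). Tap2 shares 14.1% with the long noncoding gene Gm15821 on the opposite strand, whose log2 fold change was 1.34 ± 0.25 (edgeR adjusted p = 0.00947), and 4.4% with Gm20496, whose log2 fold change was 0.08 ± 0.37 (edgeR adjusted p = 0.906). The genes that share the larger part with Tapbp and Tap2 thus moved by similar amounts. Tapbp also shares 4.1% with Zbtb22, a gene on its own strand, whose log2 fold change was 0.09 ± 0.39 (edgeR adjusted p = 0.886). Tap1 shares 3.9% with Psmb9 on the opposite strand. Nlrc5 shares 0.9% with the noncoding gene 9330175E14Rik on the opposite strand, whose log2 fold change was 1.03 ± 0.22 with TEPP-46 (edgeR adjusted p = 0.0136) and 1.13 ± 0.22 against resting (edgeR adjusted p = 0.0122). H2-Q4 shares 19.1% with the antisense gene Gm11131. Genes of this family also share sequence with each other. Of the transcript stretches of 50 bases, 36.4% of H2-Q4, 26.5% of H2-Q7, 14.5% of H2-T23, 12.8% of H2-D1 and 9.6% of H2-K1 also occur in a transcript of another gene. The share was 23.2% for Tapbp and 11.6% for Tap2, mostly with the overlapping genes named above, 3.3% for Tap1, 0.3% for Nlrc5 and 0% for B2m. The levels of the H2-Q genes are therefore uncertain, and B2m and Nlrc5 are free of such sharing or nearly so.

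The other genes of the pathway were taken from lists of known members. Counts are given as genes past an edgeR adjusted p of 0.05, and the background shares are those given above for each comparison. Of 15 other H2 heavy chains 7 were tested, of which 1 rose and 1 fell on activation and 0 changed with TEPP-46. At an unadjusted p below 0.05, 3 of these 7 were higher and 1 was lower with TEPP-46. H2-T10 fell on activation by 0.77 ± 0.22 on the log2 scale (adjusted p = 0.0233). H2-Q2, at 0.604 to 7.68 CPM, rose by 2.59 ± 0.73 (adjusted p = 0.0217). Both calls rested on few libraries: that of H2-T10 was lost without resting library 4 or 5 or any control library and with no filter on low counts, and that of H2-Q2 without any resting library or control library 4 or 5. Of 10 genes of folding, loading and trimming in the endoplasmic reticulum, 1 rose and 2 fell on activation, and 1 rose and 1 fell with TEPP-46. Pdia3, which encodes the disulfide isomerase ERp57 of the loading complex, fell by 0.77 ± 0.26 on activation (adjusted p = 0.0481) and rose by 0.95 ± 0.26 with TEPP-46 (adjusted p = 0.0359). Neither call of Pdia3 was stable. The fall lost its call in 11 of 19 settings, with adjusted p up to 0.139, among them DESeq2 size factors (0.0561), total counts (0.0703), no filter (0.0599) and leaving out any resting or control library. The rise lost it in 9, with adjusted p up to 0.125, among them total counts (0.0514) and leaving out any control library. Canx, which encodes calnexin, a chaperone of newly made heavy chains, moved the other way, up by 0.83 ± 0.25 (adjusted p = 0.0271) and down, at -0.97 ± 0.25, with TEPP-46 (adjusted p = 0.0271). Bcap31, an export factor of the endoplasmic reticulum, fell by 0.83 ± 0.23 on activation (adjusted p = 0.0201). The activation calls of Canx and Bcap31 were lost without resting library 4 or 5 or any control library, and the TEPP-46 call of Canx without any control library or TEPP-46 library 4 or 5. Erap1, the peptidase that trims class I peptides, did not pass with TEPP-46, at 0.74 ± 0.29 (adjusted p = 0.0969).

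Of 6 genes of the inducible proteasome and its activator, 1 fell on activation and 1 rose with TEPP-46, and it was Psmb10 both times. Psmb10, the subunit beta 2i, stood at 75.0, 147 and 154 CPM in resting, 29.4, 39.6 and 36.1 CPM in control and 112, 94.5 and 107 CPM in TEPP-46 libraries. The control libraries were lowest without overlap. It fell by 1.84 ± 0.28 (adjusted p = 0.00156) and rose by 1.58 ± 0.28 (adjusted p = 0.00782). Psmb9, which shares a promoter region with Tap1, had log2 fold changes of 0.58 ± 0.36 on activation (adjusted p = 0.245) and 0.43 ± 0.36 with TEPP-46 (adjusted p = 0.428). Psmb8, the subunit beta 5i, had ones of 0.71 ± 0.41 (adjusted p = 0.211) and -0.12 ± 0.41 (adjusted p = 0.86).

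Of 18 genes for factors that act at class I promoters or on their transcription, 2 rose and 6 fell on activation, and 4 rose and 1 fell with TEPP-46. Ciita, the class II coactivator described with the class II genes, is 1 of these 4. Irf1, an interferon-induced activator of class I genes, stood at 382, 315 and 195 CPM in resting, 167, 116 and 135 CPM in control and 474, 431 and 412 CPM in TEPP-46 libraries. No control library reached the level of any library of the other groups, and TEPP-46 libraries were highest. Irf1 fell by 1.09 ± 0.26 (adjusted p = 0.0108) and rose by 1.65 ± 0.26 with TEPP-46 (adjusted p = 0.00516). The fall of Irf1 lost its call without control library 4 or 5. Irf2 rose by 0.89 ± 0.23 with TEPP-46 (adjusted p = 0.0296), a call lost in 7 of 19 settings, with adjusted p up to 0.116, among them total counts, the replicate block and leaving out any control library or TEPP-46 library 4 or 5. The subunits of the factors that bind the X and Y boxes did not move as one. Nfyb, of the Y box factor NF-Y, rose by 0.98 ± 0.23 on activation (adjusted p = 0.0103) and fell with TEPP-46, at -1.20 ± 0.23 (adjusted p = 0.0101), the latter call being lost without control library 5. Nfyc, of the same factor, and Rfxank, of the X box factor RFX, fell on activation by 1.15 ± 0.23 (adjusted p = 0.00476) and 1.13 ± 0.21 (adjusted p = 0.00363). Irf8 rose by 3.97 ± 0.62 on activation (adjusted p = 0.00164).

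**Figure D4:**
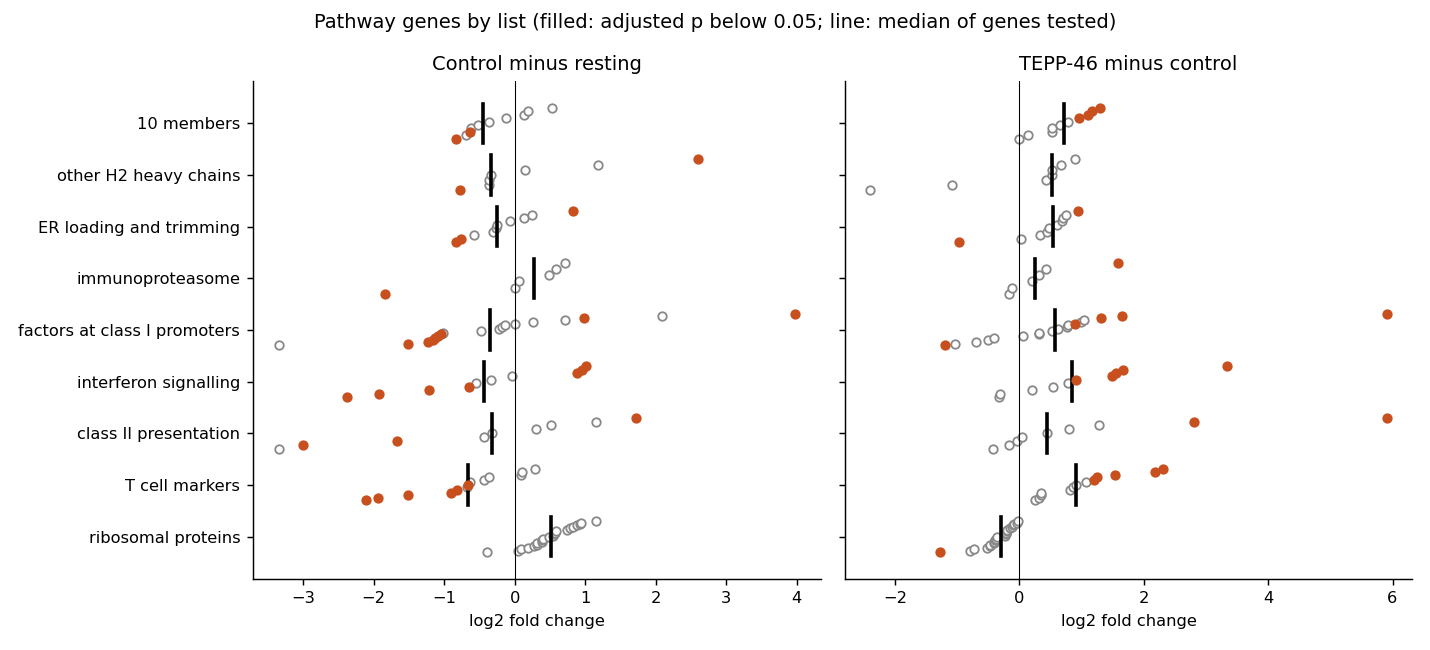
Log2 fold changes of the genes of each pathway list. The horizontal axes are log2 fold changes of control against resting libraries (left) and of TEPP-46 against control libraries (right), each circle is a gene tested, filled circles have an edgeR adjusted p below 0.05, and the vertical line is the list's median. With TEPP-46 the medians are 0.72 for the 10 class I presentation genes, 0.84 for interferon signalling and -0.29 for ribosomal proteins.

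Of 10 genes of interferon receptors and their kinases and transducers, 3 rose and 4 fell on activation, and 5 rose and 0 fell with TEPP-46, with 7 higher and 0 lower at an unadjusted p below 0.05. The median log2 fold change with TEPP-46 was 0.84. Ifnar1, a chain of the type I interferon receptor, rose by 1.55 ± 0.20 (adjusted p = 0.00233). Irf9, a DNA-binding partner of STAT2 in interferon signalling, fell by 1.21 ± 0.19 on activation (adjusted p = 0.00156) and rose by 1.49 ± 0.19 with TEPP-46 (adjusted p = 0.00233). Jak1, a kinase of the type I and type II interferon receptors, fell by 1.92 ± 0.25 (adjusted p = 0.000819) and rose by 1.67 ± 0.25 (adjusted p = 0.00384). Stat2 rose by 0.88 ± 0.25 on activation (adjusted p = 0.0234). Against resting libraries, 4 of the 10 were higher in TEPP-46 libraries, among them Stat2 by 1.66 ± 0.25 (adjusted p = 0.00486) and Ifnar1 by 1.01 ± 0.20 (adjusted p = 0.0125), beside Tap1 and Nlrc5. The call of Stat2 on activation was lost without resting library 4 or 5 or any control library, and that of Ifnar1 against resting without resting library 4 or 5 and with only the compared groups in the fit.

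Class I-like genes outside the H2 region were mostly too low to test, 2 of 5 passing the filter. Cd1d1, which encodes a presenter of lipids that B cells also carry, fell by 4.10 ± 0.51 on activation (adjusted p = 0.000644) and rose by 2.81 ± 0.50 with TEPP-46 (adjusted p = 0.00773). Class II genes, which present peptides to CD4+ T cells and are mostly found in B cells and other antigen-presenting cells, had 1 of 9 higher and 2 lower on activation, and 2 of 9 higher with TEPP-46. The latter were H2-Aa, at 2.80 ± 0.70 (adjusted p = 0.0261), and Ciita, at 5.91 ± 1.64 (adjusted p = 0.0359). Both calls were lost with limma-voom, at adjusted p = 0.0659 for H2-Aa and 0.162 for Ciita, and without any control library or TEPP-46 library 4 or 5. That of Ciita was also lost without resting library 5. Without TEPP-46 library 4 the log2 fold change was 1.91 for H2-Aa and 3.16 for Ciita. Ciita stood at 0, 1.20 and 0 CPM in control libraries and at 1.10, 72.3 and 6.79 CPM in TEPP-46 libraries, so that library 4 held most of it. Nlrc5 was at 221, 280.2 and 287 CPM in the same libraries, also lowest in library 1.

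The marker lists were set beside the class I genes. In TEPP-46 libraries 1, 4 and 5 the 12 summed B cell markers were 879.5, 1242 and 738.6 CPM, most of it from Ighm, the immunoglobulin mu heavy chain, at 851.7, 849.5 and 658.1 CPM. The other 11 together were 27.8, 392 and 80.6 CPM there, 35.6, 190.1 and 84.6 CPM in resting and 16.7, 19.4 and 24.45 CPM in control libraries. Library 1 thus held the least of them among TEPP-46 libraries and library 4 the most of all 9. In the same TEPP-46 libraries the summed markers of platelets and red cells were 16.8, 271 and 84.4 CPM, 4 nuclear long RNAs together 2603, 12680 and 13080 CPM, and 22 ribosomal protein genes together 21240, 5268 and 10790 CPM. The summed markers of myeloid cells were 49.5 to 67.9 CPM in resting, 21.8 to 33.9 CPM in control and 24.5 to 82.4 CPM in TEPP-46 libraries, and the CD8 genes together stayed between 3.88 and 22.2 CPM in all 9 libraries. Control libraries held 1.20 to 4.91 CPM of the platelet and red cell markers, with 5 of the 7 at 0, 13460 to 17640 CPM of the ribosomal protein genes and 2169 to 4316 CPM of the nuclear RNAs. Resting libraries held 4503 to 8647 CPM of the nuclear RNAs, so that TEPP-46 libraries 4 and 5 stood above all other libraries. B2m, Tap1 and H2-T23 were highest in the TEPP-46 library with the most ribosomal protein RNA and the least nuclear RNA, library 1, and H2-K1, Nlrc5 and H2-Q4 were lowest in it among TEPP-46 libraries. Of 13 T cell markers, 5 rose and 0 fell with TEPP-46, with a median log2 fold change of 0.91, and 6 fell and 0 rose on activation. Of the 10 B cell markers tested, 6 rose with TEPP-46 and 4 fell on activation. Of 6 plasma cell markers, 3 fell and 1 rose on activation, with a median log2 fold change of -4.58, and 1 rose with TEPP-46. Igha, an immunoglobulin heavy chain, stood at 752.3, 253.8 and 2041 CPM in resting libraries and at 0 to 0.245 CPM in control libraries. The summed plasma cell markers were 1514 to 5370 CPM in resting, 660.1 to 1063 CPM in control and 336.5 to 575.6 CPM in TEPP-46 libraries. Most of the control sum was Xbp1, which also acts outside plasma cells, at 645.8, 1049 and 792.3 CPM. The class I genes are expressed by B cells and other leukocytes as well as by T cells, and the part of these cells or of RNA quality in the differences was not tested. Leaving out both resting library 1 and TEPP-46 library 4 was an alternative chosen after seeing the data. TEPP-46 libraries 1 and 4 were least like each other, with a correlation of 0.818, and library 5 correlated with them at 0.913 and 0.896. Without resting library 1 and TEPP-46 library 4 the log2 fold change with TEPP-46 was 1.40 for Tap2, 1.20 for Tapbp, 1.14 for Tap1 and 1.05 for Nlrc5, all past the threshold, and H2-D1 at 0.66 (edgeR adjusted p = 0.0443) and H2-T23 at 0.97 (edgeR adjusted p = 0.0468) were called as well. Without TEPP-46 library 1 alone it was 1.25 for Tap2, 1.17 for Tapbp, 1.20 for Nlrc5, 0.61 for Tap1 and 0.78 for H2-K1, these 5 being called, and 0.44 for H2-D1, 0.42 for H2-T23 and 0.09 for B2m, which were not.

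**Figure D5:**
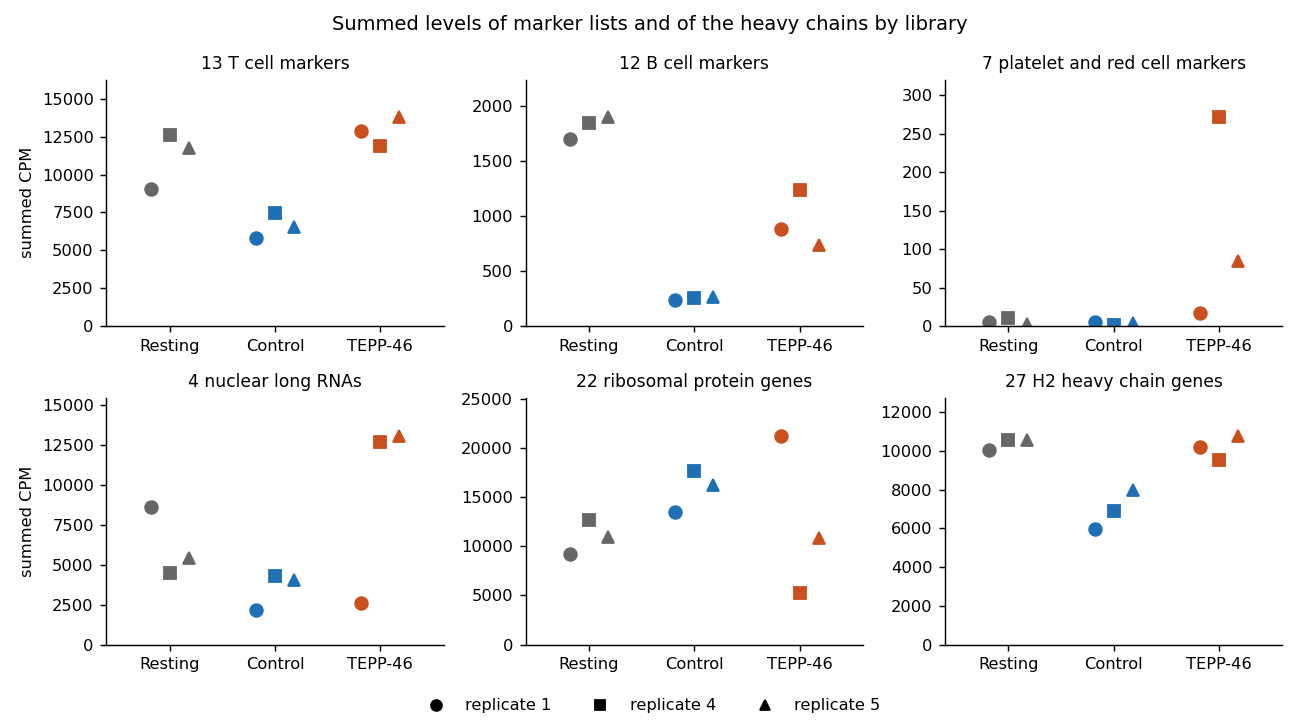
Summed CPM of 5 marker lists and of the 27 H2 heavy chain genes in each library. The vertical axes are summed CPM starting at 0, the symbols are replicate numbers 1, 4 and 5, and the groups are on the horizontal axis. TEPP-46 library 4 holds 271 CPM of platelet and red cell markers and 5268 CPM of ribosomal protein genes, while its heavy chain sum of 9517 CPM lies between those of control and resting libraries.

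The genes whose log2 CPM profile over the 9 libraries was most like that of Nlrc5 were found by the root mean square difference of the centred profiles among 8711 genes. Among the 5 nearest were Gpr174 at 0.143, Dtx3l at 0.157, Fam173a at 0.159 and Amdhd2 at 0.186 on the log2 scale. Dtx3l encodes a ubiquitin ligase and Gpr174 a receptor for a lysophospholipid. Nearest to the mean profile of the 10 class I presentation genes were Med24 at 0.069, Itfg1 at 0.106, Vps41 at 0.107, Parp11 at 0.125 and Dmap1 at 0.127. The members were left out of the search.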

How the data were processed

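The values are raw read counts, whole numbers per gene and library that the authors deposited without normalization in 1 table. GRCm38 and DESeq2 (no version) are named in the submitters' processing notes. The labels name no aligner, counter, strand setting or annotation release, which were thus not given in the sources used here. Of 47937 identifiers, 47224 were paired with a GENCODE M21 symbol, 39106 with an equal version number. Genes were filtered with filterByExpr by group (minimum count 10, minimum total 15), leaving 12536 of 23436 with a count, scaled with TMM factors and fitted in 1 model of all 9 libraries by group with the quasi-likelihood functions of edgeR 4.0.16 in R 4.3.3, with two-sided tests and Benjamini-Hochberg adjustment over all genes tested. SE and 95% intervals came from this fit. The fit was also run on simulated data, with no outcome given here, so that run does not bear on the calls. Counting floors cover counting error only. Alternatives were DESeq2 1.42.0, limma-voom (limma 3.58.1), other scaling, other filters, only the groups compared, a replicate block and leaving out each library. The 10 genes and the lists were chosen with earlier results of these data known. Text names the 10 genes, up to 4 genes of each list in order of adjusted p, genes overlapping a member, and the 5 genes nearest in profile. Some genes of these lists are not reported here. Psmb8, Psmb9 and Erap1 were named for their role in the pathway, outside that rule. Gene coordinates come from GENCODE M21 (GRCm38) and count from 1.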

Additional observations from a re-analysis of the deposited data

How the results depend on the processing

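The 10 genes were recomputed in each comparison under 19 alternative settings: 499 values kept their direction and side of the threshold, 38 lost the call, 18 gained it and 15 changed sign. For the other genes named these were 1706, 167, 42 and 13. Of the called genes of the pathway lists followed through these settings, 11 of 21 kept their call on activation in every setting that tested them, 6 of 14 with TEPP-46 and 1 of 6 against resting. The count of members lower on activation, 2 as reported, was 1 with DESeq2 size factors in edgeR, total counts, upper quartile factors, no filter, a filter of 10 CPM in 3 libraries, or the replicate number as a block. It was 4 with DESeq2, limma-voom, only the 2 groups compared, or both resting library 1 and TEPP-46 library 4 left out, and 0 to 4 with 1 library left out. The count higher on activation was 1 with only the 2 groups compared and 0 to 1 with 1 library left out. The count higher with TEPP-46 was 3 with the block, 6 with both libraries left out, 3 to 6 in these other settings and 0 to 5 with 1 library left out. The count higher than in resting cells was 1 with only the 2 groups compared and 1 to 2 with 1 library left out. The replicate numbers were not taken as pairs. Deviations of same-numbered libraries from their group means correlated between -0.123 and 0.089, and not every library correlated best with its own number. Between control and TEPP-46 libraries each did, at 0.058, 0.036 and 0.087 for numbers 1, 4 and 5. Between resting and TEPP-46 libraries the same-numbered values were -0.106, -0.09 and -0.123. These values are weak and mixed, so they do not decide whether the numbers mark pairs. The summed heavy chains were called on activation with DESeq2 (log2 fold change -0.546), limma-voom (-0.591), only the 2 groups (-0.566) and both libraries left out (-0.605), and ran from -0.688 to -0.478 with 1 left out. With TEPP-46 they were called by DESeq2 (0.511) and ran from 0.445 to 0.655 with 1 left out, and against resting from -0.073 to 0.017. None of the other values that changed sign passed the threshold as reported. With TEPP-46, H2-Q7 was 0.006 with limma-voom and 0.005 with the replicate block. Ifnar2 was 0.066 on activation with total counts. With both libraries left out, H2-T23 was -0.111 on activation, and Canx was 0.117 and Ciita -0.69 against resting. With 1 library left out, log2 fold changes on activation ran from -0.162 to 0.053 for Ifnar2, -0.111 to 0.652 for H2-T23, -0.34 to 0.019 for Irf2, -0.333 to 0.061 for Nlrc5 and -0.005 to 0.249 for H2-Q7. With TEPP-46 they ran from -0.124 to 0.131 for H2-Q7 and -0.06 to 0.287 for H2-Q4. Against resting they ran from -0.178 to 0.086 for H2-K1, -1.087 to 0.533 for H2-Aa, -0.058 to 0.407 for Pdia3, -0.283 to 0.389 for B2m, -0.437 to 0.007 for Canx, -0.195 to 3.346 for Ciita and -0.173 to 0.051 for H2-D1. The cause was not tested. At these depths H2-Q4, with 60 to 216 counts per library, has the fewest of the 10 genes.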
